A study of Homo sapiens with 36 samples.

Results

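Small noncoding RNAs of the cell nucleus and the RNA-processing machinery were followed in TC32, an Ewing sarcoma cell line, after silencing of 1 of 3 genes. The set comprised the Cajal body RNAs (symbols beginning with SCARNA), the spliceosomal small nuclear RNAs (symbols beginning with RNU and a digit, RNU105C left out) and the RNAs RN7SK, RMRP, RN7SL1 and RPPH1. Of 40 array symbols that fitted these names, 29 were detected (detection p below 0.01) on at least 3 of 36 arrays and were kept, among 11437 genes tested. They were 16 Cajal body RNAs, 7 snRNAs made by RNA polymerase II and 6 RNAs made by RNA polymerase III. The 11 that were not kept were SCARNA1, SCARNA2, SCARNA4, SCARNA5, SCARNA6, SCARNA9L, SCARNA15, SCARNA17, RNU2-1, RNU5D-1 and RNU105B. SCARNA4 and SCARNA5 came closest, with detection on 2 arrays, while SCARNA3 and SCARNA27 were the least detected of those kept, on 7 arrays.

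Total RNA was labelled and hybridised to 36 Illumina bead arrays 48 h after transfection with 20 nM siRNA. Each target had 3 siRNAs on 3 arrays apiece: siSUPT6H A1, A3 and Q3, siSF3B1 A2, A3 and Q3, and siHNRNPH1 A2, A3 and Q3. As controls, the negative control siRNA siNeg had 6 arrays and Untreated cells had 3, and the Untreated labels carry the same dose although the protocol speaks of untransfected cells. The authors had normalised the arrays in 2 sets, called runs here: 24 arrays with siSUPT6H, siSF3B1, Untreated and siNeg replicates 1 to 3, and 12 arrays with siHNRNPH1 and siNeg replicates 4 to 6. Every change below is against the siNeg arrays of the same run. All arrays come from a single line, and the labels do not say whether replicates were separate cultures, so p-values measure the spread between these arrays.

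Cajal bodies are nuclear bodies in which snRNAs are modified and assembled into ribonucleoproteins. Small Cajal body RNAs (scaRNAs) guide that modification: box H/ACA scaRNAs direct pseudouridylation and box C/D scaRNAs direct 2′-O-methylation of snRNAs, and some scaRNAs carry both kinds of box. Most human scaRNAs are processed out of the introns of host genes. Most snRNAs are made from short genes of their own by RNA polymerase II, with 3′ ends formed by the Integrator complex, whereas the U6 type, the 7SK RNA and the RNAs of RNase P, RNase MRP and the signal recognition particle are made by RNA polymerase III. SUPT6H encodes the elongation factor and histone chaperone SPT6, SF3B1 a subunit of the U2 snRNP that recognises the branch point, and HNRNPH1 an RNA-binding protein that regulates splicing.

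The number of probes detected on an array ran from 13106 to 16788 of 47323, and the number of arrays limits the precision. The siSF3B1 arrays had fewer, 13106 to 14853, and a higher detection floor (log2 4.98 to 5.27), against 15412 to 16295 and 4.81 to 4.91 on the siNeg arrays of that run. Each target was lower with its own siRNAs: SUPT6H was at 29.3% of siNeg with siSUPT6H, SF3B1 at 40.9% with siSF3B1 and HNRNPH1 at 39.2% with siHNRNPH1 (limma, adjusted p 1.39e-18, 2.71e-18 and 9.07e-18). Only 5 of the 9 siSUPT6H arrays detected SUPT6H, so its percentage there is a fitted value near the detection floor. SUPT6H was also at 45.4% of siNeg with siSF3B1 and at 58.4% with siHNRNPH1, and HNRNPH1 at 66.6% with siSUPT6H (adjusted p 7.36e-07). Of the Ewing sarcoma markers 4 of 5 with a probe were detected on all 36 arrays, and FLI1 on 31. Of the other cell types' markers 5 of 6 blood genes and 4 of 6 epithelial genes were detected on no array (CD14 was detected on 19, EPCAM on 3 and KRT18 on 36). KRT18 was called higher with siSF3B1 (log2 change 1.12, adjusted p 4.31e-11) and CD14 with siHNRNPH1 (0.60, adjusted p 0.00144), and their part in the results was not tested. The labelling kit primes with oligo(dT), and mature scaRNAs and snRNAs carry no poly(A) tail, so which form of each RNA the probe reads is not known from these data. In these bulk cultures a change in RNA per cell and a change in the number of cells that make it cannot be told apart.

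Most of the small RNAs that were measurable in control cells were higher after silencing of each of the 3 genes. Of the 16 detected on at least 3 of the 9 control arrays, 14 were called higher with siSUPT6H, 14 with siSF3B1 and 13 with siHNRNPH1 (limma, Benjamini-Hochberg adjusted p below 0.05), where 26.7%, 27.9% and 21.5% of all genes detected in controls in the same way were called higher. Their number called higher with every target was 11 of 16 (5.94% of such genes), and 8 of 16 were called higher with each of the 9 siRNAs taken singly (1.69%). Those 8 were SCARNA13, SCARNA16, SCARNA18, RNU1-1, RNU1-3, RNU4ATAC, RN7SK and RNU6-1. No overlap with siNeg, on the higher side, was seen for 9, 12 and 10 of the 16 with siSUPT6H, siSF3B1 and siHNRNPH1, against 15.3%, 20.5% and 10.6% of such genes.

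Over the 29 kept, 23 were called higher and 1 lower with siSUPT6H, 24 higher and 0 lower with siSF3B1, and 22 higher and 1 lower with siHNRNPH1. Of all 11437 genes 47.4% were called with siSUPT6H (25.7% higher, 21.8% lower), 61.9% with siSF3B1 (26.2% higher, 35.7% lower) and 45.1% with siHNRNPH1 (21.6% higher, 23.5% lower). Called higher with each siRNA of the target were 20 with siSUPT6H (12.4% of all genes), 19 with siSF3B1 (18%) and 18 with siHNRNPH1 (9.43%). With every target 18 of the 29 were called higher (5.37%), and with each of the 9 siRNAs 13 (1.53%). The 13 detected on fewer than 3 control arrays passed the detection filter mainly through arrays of silenced cells, so that their being higher follows in part from how they were kept. The median log2 change was 0.94 with siSUPT6H, 0.85 with siSF3B1 and 1.16 with siHNRNPH1, or 0.85, 0.64 and 1.05 with RNAs undetected in siNeg set at their lower bound, and the median over all genes was 0.03, -0.06 and -0.02. With the siRNA as a random block (correlation among arrays of an siRNA 0.45) 16, 15 and 18 of the 29 were called with siSUPT6H, siSF3B1 and siHNRNPH1 (18%, 35.5% and 14.2% of all genes), and with each siRNA's mean as a single replicate 5, 13 and 12, while the share of all genes called was then 9.06%, 28% and 6.26%.

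**Figure D1:**
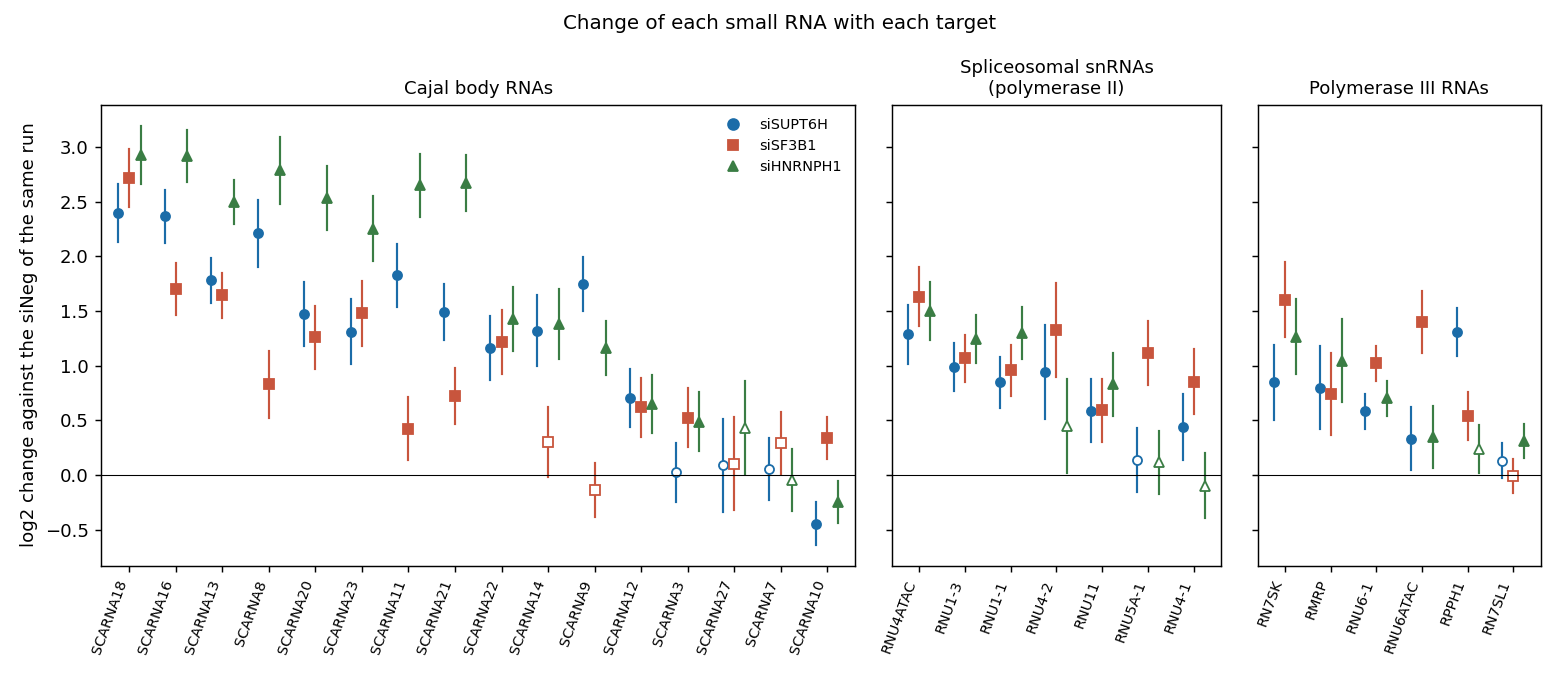
Log2 change of each of the 29 small RNAs against the siNeg arrays of the same run, by target, with 95% confidence intervals from the limma fit (9 silenced against 3 siNeg arrays); filled symbols mark an adjusted p below 0.05. SCARNA18 and SCARNA16 lie above 1.5 with all 3 targets, SCARNA9 and SCARNA10 differ in direction or size between targets, and points of RNAs undetected in siNeg are fitted values and not bounds.

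Of the box H/ACA scaRNAs, SCARNA13, SCARNA16 and SCARNA18 were measurable in control cells, and these 3 were called higher with each target. The other 9 kept were detected on fewer than 3 control arrays and passed the filter through silenced arrays. Over the 12 kept, 10 were called higher with siSUPT6H, 10 with siSF3B1 and 11 with siHNRNPH1, with median log2 changes of 1.48, 1.02 and 2.51 (1.17, 0.67 and 2.21 at the lower bound). Of all genes 25.7%, 26.2% and 21.6% were called higher with these targets. SCARNA18 had normalised log2 intensities of 7.19 to 8.83 (median 8.27) on the 9 siSUPT6H arrays and 8.27 to 8.63 (median 8.48) on the 9 siSF3B1 arrays, against 5.56, 5.75 and 5.96 on the siNeg arrays of that run. It had 6.80 to 9.70 (median 8.98) on the 9 siHNRNPH1 arrays, against 5.42, 5.70 and 6.03 with siNeg replicates 4 to 6. Every silenced array therefore lay above every siNeg array of its run. The log2 changes were 2.40 with siSUPT6H, 2.71 with siSF3B1 and 2.93 with siHNRNPH1 (limma, SE 0.13, adjusted p 8.35e-22, 2.86e-24 and 1.06e-25).

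SCARNA18 was also the scaRNA that differed between the controls. It was at 5.56, 5.75 and 5.96 on siNeg arrays, against 6.34, 6.97 and 6.53 on Untreated arrays, and the groups did not overlap (log2 change -0.86, adjusted p 0.000298). Against Untreated its log2 changes were 1.54 with siSUPT6H and 1.85 with siSF3B1, smaller than against siNeg but still called (adjusted p 2.3e-14 and 1.23e-17).

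SCARNA16, another box H/ACA scaRNA, had intensities of 7.47 to 8.01 (median 7.77) with siSUPT6H and 6.76 to 7.41 (median 6.94) with siSF3B1, against 5.57, 5.22 and 5.30 with siNeg. With siHNRNPH1 it had 6.74 to 9.32 (median 8.68), against 5.45, 5.25 and 5.43 with siNeg. Again no silenced array reached down to a siNeg array. The log2 changes were 2.36, 1.70 and 2.92 with siSUPT6H, siSF3B1 and siHNRNPH1 (SE 0.12, adjusted p 1.88e-23, 5.41e-18 and 1.38e-27). SCARNA16 was at 5.61, 5.57 and 5.54 on Untreated arrays, near its siNeg level.

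SCARNA13 behaved likewise, with 7.05 to 7.64 (median 7.44) on siSUPT6H arrays and 6.88 to 8.04 (median 7.07) on siSF3B1 arrays, against 5.43, 5.65 and 5.90 on siNeg arrays. On siHNRNPH1 arrays it had 6.49 to 9.21 (median 8.81), against 5.56, 5.66 and 5.80 with siNeg. The groups did not overlap, and the log2 changes were 1.78, 1.64 and 2.50 with siSUPT6H, siSF3B1 and siHNRNPH1 (SE 0.10, adjusted p 2.98e-21, 3.88e-20 and 9.8e-28). SCARNA13 was called with each target with the siRNA as a random block, but with no target with siRNA means as replicates.

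**Figure D2:**
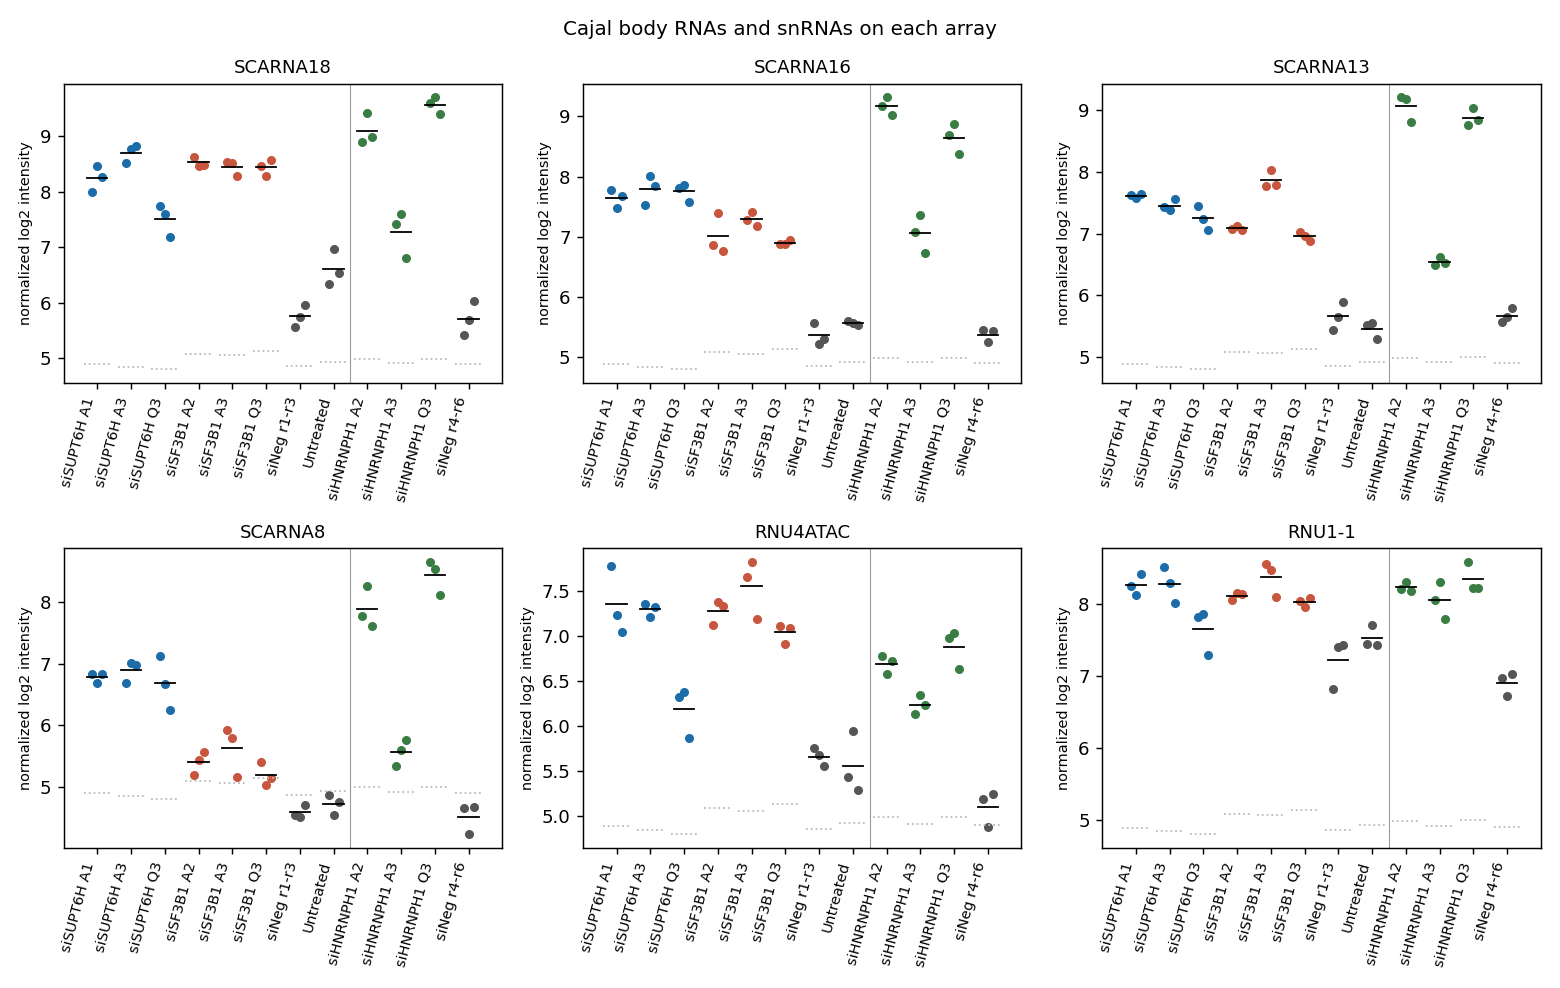
Normalised log2 intensity of 4 box H/ACA scaRNAs and 2 snRNAs on each of the 36 arrays, by siRNA; bars are means of 3 arrays, the dotted grey line is the mean detection floor and the vertical line separates the 2 runs. SCARNA18 reaches 9.70 with siHNRNPH1 and does not exceed 6.03 with siNeg, and siHNRNPH1 A3 lies below A2 and Q3 for the 4 scaRNAs.

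Several further box H/ACA scaRNAs were undetected in siNeg and detected after silencing, so that only a lower bound of the fold change can be given: the mean with silencing over the mean of, per array, the detection floor or the probe's own value, whichever was higher. SCARNA8 was at 6.25 to 7.13 (median 6.83) with siSUPT6H and 5.03 to 5.93 (median 5.40) with siSF3B1, against 4.54, 4.50 and 4.70 with siNeg, where no array detected it. With siHNRNPH1 it was at 5.33 to 8.66 (median 7.77), against 4.65, 4.22 and 4.66 with siNeg. These values made it at least 3.81-fold higher with siSUPT6H, 1.46-fold with siSF3B1 and 5.26-fold with siHNRNPH1 (adjusted p 4.21e-18, 4.14e-06 and 2.45e-22).

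SCARNA20 was at 5.53 to 6.09 (median 5.96) with siSUPT6H and 5.08 to 6.39 (median 5.40) with siSF3B1, against 4.61, 4.32 and 4.21 with siNeg, and at 5.54 to 8.11 (median 7.41) with siHNRNPH1, against 4.42, 4.55 and 4.49 with siNeg. It was at least 1.99-fold, 1.72-fold and 4.35-fold higher with siSUPT6H, siSF3B1 and siHNRNPH1. SCARNA21 was at 5.36 to 6.35 (median 5.96) with siSUPT6H, against 4.43, 4.55 and 4.31 with siNeg, and at 5.57 to 8.30 (median 7.64) with siHNRNPH1, against 4.36, 4.65 and 4.59 with siNeg. It was at least 2.09-fold higher with siSUPT6H and 4.92-fold with siHNRNPH1. It was called higher with siSF3B1 too, but only 3 of 9 arrays detected it there, so no fold is given. SCARNA23 was at 5.34 to 6.35 (median 5.79) with siSF3B1, against 4.29, 4.28 and 4.29 with siNeg, and its bounds were at least 1.67-fold, 1.88-fold and 3.42-fold. For these 3 scaRNAs no array of silenced cells overlapped with siNeg of its run. No control array detected them, so that this follows in part from how they were kept.

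SCARNA11 differed between the targets. It passed the detection filter mainly through siSUPT6H and siHNRNPH1 arrays, so that this difference follows in part from how it was kept. Its intensity was 5.58 to 6.58 (median 6.16) with siSUPT6H and 4.46 to 4.90 (median 4.81) with siSF3B1, against 4.29, 4.34 and 4.28 with siNeg. With siHNRNPH1 it was 5.36 to 8.41 (median 7.82), against 4.45, 4.92 and 4.32 with siNeg. All 9 siSUPT6H and all 9 siHNRNPH1 arrays detected it, but none of the 9 siSF3B1 arrays did, where the detection floor was higher (4.98 to 5.27). It was at least 2.41-fold higher with siSUPT6H (adjusted p 6.3e-16), and with siHNRNPH1 its log2 change was 2.65 (SE 0.14, adjusted p 1.68e-22, siNeg detected on 1 of 3 arrays). No fold is given with siSF3B1, where both groups were undetected. Its fitted values there still gave a call (limma, log2 change 0.42, adjusted p 0.00816). That call is part of the counts of RNAs called higher with siSF3B1 and with every target.

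Of the remaining box H/ACA scaRNAs, SCARNA22 was at least 1.97-fold higher with siSUPT6H and 2.04-fold with siSF3B1, and its log2 change with siHNRNPH1 was 1.43. SCARNA14 had a log2 change of 1.32 with siSUPT6H and was at least 2.03-fold higher with siHNRNPH1, while its value of 0.30 with siSF3B1 was not called (adjusted p 0.0971). SCARNA3 and SCARNA27 sat near the floor throughout: SCARNA3 was called with siSF3B1 (at least 1.04-fold) and with siHNRNPH1 (no fold, since the bound is under 1), and SCARNA27 with no target. The rise was thus not shared by all 12.

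The 4 scaRNAs with box C/D or both boxes did not move as a group. SCARNA9, a box C/D scaRNA that guides methylation of the U2 snRNA, was at 6.40 to 7.71 (median 7.48) with siSUPT6H and 5.08 to 5.67 (median 5.37) with siSF3B1, against 5.37, 5.48 and 5.69 with siNeg. With siHNRNPH1 it was at 5.49 to 6.85 (median 6.51), against 5.28, 5.06 and 5.09 with siNeg. It was higher on every siSUPT6H and siHNRNPH1 array than on siNeg arrays of the same run, whereas siSF3B1 and siNeg overlapped. The log2 changes were 1.75 with siSUPT6H (SE 0.12, adjusted p 1.15e-17), -0.13 with siSF3B1 (adjusted p 0.351) and 1.16 with siHNRNPH1 (adjusted p 1.58e-11).

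SCARNA10, which carries both boxes and guides modification of the U5 snRNA, moved little, but in both directions. It was at 6.52 to 6.96 (median 6.80) with siSUPT6H and 7.33 to 7.83 (median 7.51) with siSF3B1, against 7.20, 7.20 and 7.18 with siNeg, so all 9 arrays lay below siNeg with siSUPT6H and above it with siSF3B1. It was at 6.94 to 7.49 (median 7.29) with siHNRNPH1, against 7.41, 7.59 and 7.51 with siNeg, and these groups overlapped. The log2 changes were -0.44, 0.33 and -0.25 with siSUPT6H, siSF3B1 and siHNRNPH1 (adjusted p 0.00011, 0.00213 and 0.0286), and the fall with siSUPT6H was not called against Untreated (-0.13, adjusted p 0.259). SCARNA12, also of both boxes, was called higher with each target, with log2 changes of 0.70, 0.62 and 0.65. With the siRNA as a random block, or with siRNA means as replicates, neither SCARNA10 nor SCARNA12 was called with any target. SCARNA7, a box C/D scaRNA detected on 9 of 36 arrays, was called with none (0.05, 0.29 and -0.05).

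Among snRNAs made by polymerase II, 6 of 7 were called higher with siSUPT6H, 7 of 7 with siSF3B1 and 4 of 7 with siHNRNPH1, with median log2 changes of 0.85, 1.07 and 0.83 (for siSF3B1 and siHNRNPH1 0.96 and 0.45 at the lower bound). Of all genes 25.7%, 26.2% and 21.6% were called higher. RNU11, RNU4-1 and RNU5A-1 were detected on fewer than 3 control arrays and were kept mainly through silenced arrays. Of the 4 others, 4, 4 and 3 were called higher. RNU4ATAC, the U4 counterpart of the minor spliceosome that removes a rare class of introns, was at 5.87 to 7.78 (median 7.21) with siSUPT6H and 6.91 to 7.82 (median 7.19) with siSF3B1, against 5.75, 5.68 and 5.55 with siNeg. It was at 6.13 to 7.03 (median 6.63) with siHNRNPH1, against 5.19, 4.88 and 5.25 with siNeg. No silenced array overlapped with siNeg, and the log2 changes were 1.29, 1.63 and 1.5 with siSUPT6H, siSF3B1 and siHNRNPH1 (SE 0.13, adjusted p 8.04e-12, 1.29e-15 and 6.12e-14). RNU11, the minor spliceosome's U1 counterpart, was undetected in siNeg. It was at least 1.09-fold higher with siSUPT6H and 1.27-fold with siHNRNPH1, where 7 of 9 arrays each detected it. It was also called higher with siSF3B1, but only 3 of 9 arrays detected it there, so no fold is given. Against Untreated it was not called with siSUPT6H or siSF3B1 (limma, log2 change 0.30 and 0.30, adjusted p 0.0864 and 0.0683).

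U1, which recognises the 5′ splice site, was read by RNU1-1 and RNU1-3, near-identical copies that a probe may not tell apart. RNU1-1 was at 7.29 to 8.51 (median 8.12) with siSUPT6H and 7.96 to 8.55 (median 8.10) with siSF3B1, against 6.82, 7.40 and 7.42 with siNeg. It was at 7.79 to 8.58 (median 8.22) with siHNRNPH1, against 6.97, 6.72 and 7.02 with siNeg. The siSUPT6H arrays overlapped with siNeg, the others did not, and the log2 changes were 0.85, 0.96 and 1.30 (SE 0.12, adjusted p 2.75e-08, 5.74e-10 and 1.17e-13). RNU1-3 changed by 0.99, 1.07 and 1.24 (log2; SE 0.11). RNU1-3 was also lower with siNeg than in Untreated cells (log2 change -0.46, adjusted p 0.0192), and against Untreated its log2 changes were 0.52 with siSUPT6H and 0.60 with siSF3B1.

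The U4 and U5 snRNAs join the spliceosome with U6 as the tri-snRNP. RNU5A-1 passed the detection filter only through siSF3B1 arrays, so that its standing out there follows from how it was kept. It was detected on 8 of 9 siSF3B1 arrays, on none of the 9 siSUPT6H and 9 siHNRNPH1 arrays and on no siNeg array. It was at 4.72 to 6.09 (median 5.37) with siSF3B1, against 4.26, 4.47 and 4.41 with siNeg, at least 1.56-fold higher (adjusted p 2.38e-09). RNU4-2 was at 5.33 to 7.41 (median 5.87) with siSUPT6H and 6.21 to 6.70 (median 6.46) with siSF3B1, against 5.07, 4.83 and 5.59 with siNeg. Its log2 changes were 0.94 with siSUPT6H, where the groups overlapped, 1.32 with siSF3B1, where they did not, and 0.45 with siHNRNPH1 (SE 0.21, adjusted p 0.000215, 4.06e-07 and 0.0809). RNU4-1, its near-identical copy, was detected on 7 siSF3B1 arrays, 3 siSUPT6H arrays and 1 control array. It was at least 1.31-fold higher with siSF3B1, was called higher with siSUPT6H with no fold to give, and was not called with siHNRNPH1 (log2 change -0.10, adjusted p 0.631).

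Of the 6 polymerase III RNAs, 5 were called higher with each target, with median log2 changes of 0.69, 0.88 and 0.52. All 6 were detected on at least 3 control arrays, and of all genes so detected 26.7%, 27.9% and 21.5% were called higher. RNU6-1, the U6 snRNA at the catalytic centre of the spliceosome, was detected on all arrays, at 10.85 to 11.57 (median 11.34) with siSUPT6H and 11.61 to 11.95 (median 11.71) with siSF3B1, against 10.71, 10.69 and 10.74 with siNeg. It was at 10.78 to 11.36 (median 11.09) with siHNRNPH1, against 10.33, 10.41 and 10.44 with siNeg. No silenced array overlapped with siNeg, and the log2 changes were 0.58, 1.02 and 0.70 (SE 0.08). RNU6ATAC, its minor spliceosome counterpart, was at 4.83 to 5.79 (median 5.63) with siSUPT6H and 5.96 to 6.91 (median 6.48) with siSF3B1, against 5.09, 5.17 and 5.13 with siNeg. It was at 5.02 to 6.003 (median 5.63) with siHNRNPH1, against 5.18, 5.25 and 5.48 with siNeg. All siSF3B1 arrays, but not all siSUPT6H or siHNRNPH1 arrays, lay above siNeg, and the log2 changes were 0.33, 1.40 and 0.35 (SE 0.14, adjusted p 0.0494, 1.97e-12 and 0.0427). A second RNU6ATAC probe gave 1.25 with siSF3B1 and was not called with siSUPT6H (0.12) or siHNRNPH1 (0.29).

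RN7SK, the RNA that holds the elongation kinase P-TEFb inactive, was read by 2 probes that differed. The brighter probe was at 8.28 to 9.55 (median 8.94) with siSUPT6H and 9.45 to 10.01 (median 9.66) with siSF3B1, against 7.37, 8.34 and 8.41 with siNeg. It was at 8.82 to 9.74 (median 9.11) with siHNRNPH1, against 8.35, 7.59 and 7.73 with siNeg. The siSF3B1 and siHNRNPH1 arrays lay above siNeg, the siSUPT6H arrays overlapped with it, and the log2 changes were 0.85, 1.60 and 1.27 (SE 0.17, adjusted p 3.91e-05, 8.69e-12 and 1.53e-08).

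The dimmer RN7SK probe was at 4.85 to 5.62 (median 5.12) with siSUPT6H and 7.47 to 8.05 (median 7.87) with siSF3B1, against 5.27, 5.49 and 5.12 with siNeg. It was at 4.71 to 5.39 (median 5.23) with siHNRNPH1, against 4.81, 4.28 and 4.59 with siNeg, where no array detected it. By this probe siSF3B1 stood apart, with a log2 change of 2.53 (SE 0.13, adjusted p 6.66e-22), and siSUPT6H was not called (-0.12, adjusted p 0.511). The probe was lower with siNeg than in Untreated cells (log2 change -0.62, adjusted p 0.0142). The call of RN7SK with siSUPT6H therefore rests on a single probe, while both probes were called higher with siSF3B1. The 7SK sequence has many copies in the genome, and which transcripts each probe reads is not given.

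**Figure D3:**
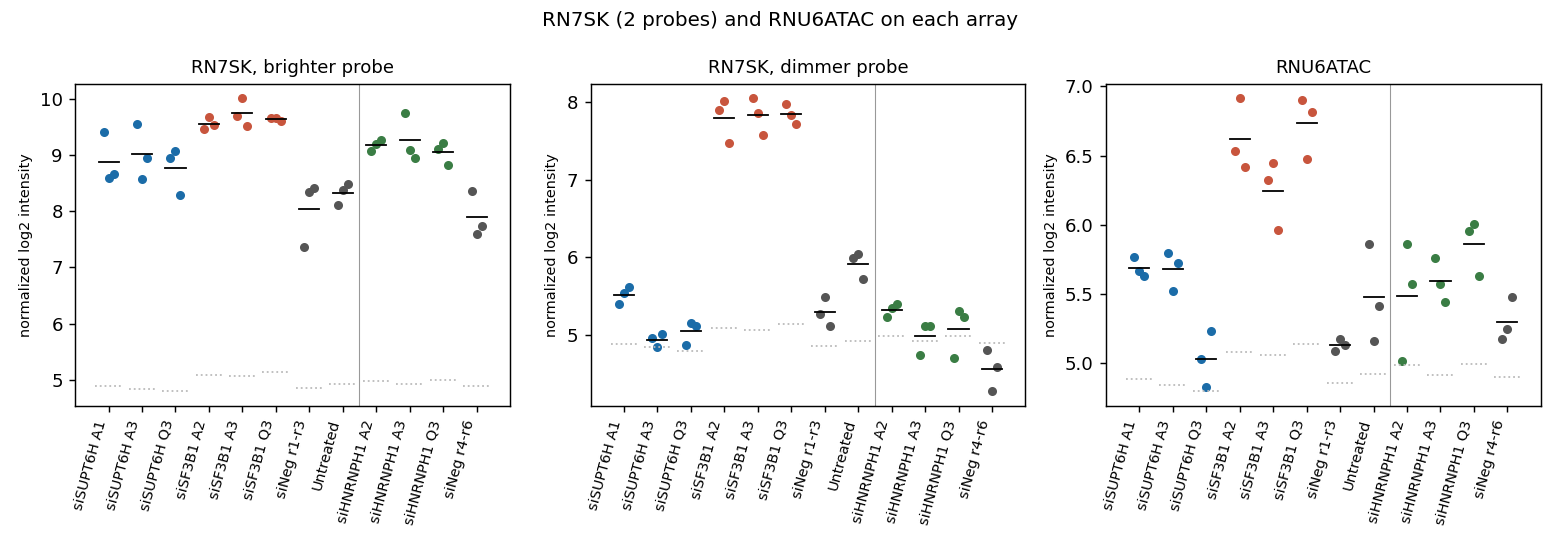
Normalised log2 intensity of the brighter and the dimmer RN7SK probe and of RNU6ATAC on each array, by siRNA; bars are means of 3 arrays, the dotted grey line is the mean detection floor and the vertical line separates the runs. The dimmer RN7SK probe is at 7.47 to 8.05 with siSF3B1 and does not exceed 6.04 on any other array.

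The RNAs of the other polymerase III particles were less alike. RPPH1, the RNA of RNase P, which trims the 5′ ends of tRNA precursors, was at 7.55 to 8.79 (median 8.53) with siSUPT6H and 6.97 to 8.21 (median 7.54) with siSF3B1, against 6.98, 7.10 and 7.01 with siNeg. It was at 7.05 to 8.16 (median 7.94) with siHNRNPH1, against 7.43, 7.69 and 7.39 with siNeg. Only the siSUPT6H arrays kept clear of siNeg, and the log2 changes were 1.30, 0.54 and 0.24 (SE 0.11, adjusted p 8.52e-15, 2.88e-05 and 0.075). RMRP, the RNA of RNase MRP, changed by 0.80, 0.74 and 1.05 (log2; SE 0.19, adjusted p 0.000381, 0.000602 and 7.29e-06). With the siRNA as a random block RMRP was called only with siHNRNPH1, and with siRNA means as replicates with no target. RN7SL1, the RNA of the signal recognition particle, was not called with siSUPT6H or siSF3B1 (log2 change 0.13 and -0.01, adjusted p 0.171 and 0.934), and was called higher with siHNRNPH1 (0.31, adjusted p 0.000958), where the groups overlapped.

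The targets were then set against each other. Between siSUPT6H and siSF3B1, 8 of the 29 were called higher with siSUPT6H (42.7% of all genes) and 11 lower (30.6%), among 73.3% of all genes called in either direction. The 19 of 29 called in either direction are no larger a share than that of all genes. The 4 largest differences in favour of siSUPT6H were in SCARNA9 (log2 difference 1.88, adjusted p 4.6e-26), SCARNA11 (1.40), SCARNA8 (1.38) and SCARNA14 (1.02), all scaRNAs. RNU6ATAC (log2 difference -1.07, adjusted p 7.78e-14), RNU5A-1 (-0.98), SCARNA10 (-0.78) and RN7SK (-0.75) were lower with siSUPT6H than with siSF3B1, followed by SCARNA3, RNU6-1, RNU4-1, RNU4-2, RNU4ATAC, SCARNA18 and SCARNA7. Fitted values of RNAs undetected in a group enter these differences. SCARNA11 was kept mainly through siSUPT6H and siHNRNPH1 arrays, SCARNA3 through siSF3B1 and siHNRNPH1 arrays, and RNU5A-1 only through siSF3B1 arrays. Their differences follow in part from how they were kept.

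Between siSF3B1 and siHNRNPH1, each against its own siNeg, 6 were called higher with siSF3B1 (22.8%) and 10 lower (29.6%), with 52.4% of all genes called. These counts lie near the shares of all genes. The 6 were RNU6ATAC (log2 difference 1.05), RNU5A-1 (1.00), RNU4-1 (0.95), RNU4-2 (0.87), SCARNA10 (0.58) and RNU6-1 (0.32). RNU5A-1 among them was kept only through siSF3B1 arrays, and none of the 6 was called with the siRNA as a random block. The 10 were 9 scaRNAs, led by SCARNA11 (-2.22), SCARNA8 (-1.96) and SCARNA21 (-1.94), and RN7SL1. SCARNA11 among them was kept mainly through siSUPT6H and siHNRNPH1 arrays, so that its difference follows in part from that. Between siSUPT6H and siHNRNPH1, 3 were called higher with siSUPT6H (16.5%), namely RPPH1 (1.07), SCARNA9 (0.58) and RNU4-1 (0.54), and 9 lower (13.7%), namely 8 box H/ACA scaRNAs from SCARNA21 (-1.18) to SCARNA18 (-0.53), and RNU1-1 (-0.45), with 30.3% of all genes called. The comparisons across runs lost most calls when siRNAs were treated as the units. With the siRNA as a random block the counts of 19, 16 and 12 became 13, 4 and 0, and with siRNA means as replicates 11, 1 and 0.

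Silencing reagents for the same gene did not give equal changes. By limma's F test among the 3 siRNAs, 12 of the 29 differed for siSUPT6H (35% of all genes), 7 for siSF3B1 (13.2%) and 18 for siHNRNPH1 (41.2%). HNRNPH1 itself was left at similar levels, 39.3% of siNeg with A2, 41% with A3 and 37.4% with Q3. Yet the median log2 change over the 12 box H/ACA scaRNAs was 3.16 with A2, 0.93 with A3 and 3.24 with Q3, and A3 gave the smallest of the 3 changes for 11 of the 12. Fitted values of RNAs undetected in siNeg enter these medians, and 9 of the 12 were kept through silenced arrays. Over the 22 small RNAs called higher with siHNRNPH1, A3 gave the smallest change for 17 (77.3%), and for 33.1% of all genes called higher with it. In SCARNA13 the log2 changes were 3.40, 0.88 and 3.21 with A2, A3 and Q3, in SCARNA18 3.38, 1.56 and 3.85, and in SCARNA16 3.79, 1.68 and 3.27 (F test, adjusted p 5.24e-24, 6.3e-17 and 4.9e-17). SCARNA8 was at least 7.92-fold, 1.58-fold and 11.6-fold higher. SCARNA9 did not follow that order, with 0.50, 1.51 and 1.48 (F test, adjusted p 6.18e-08), and the 7 polymerase II snRNAs had medians of 0.69, 1.03 and 0.73.

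For siSUPT6H, Q3 left SUPT6H at 45.9% of siNeg, against 21.6% with A1 and 25.2% with A3. The means with A1 and A3 (log2 4.64 and 4.86) lay near the detection floor of these arrays (4.77 to 4.96). Their percentages are therefore fitted values. Q3 gave the smallest of the 3 changes for 19 of the 23 small RNAs called higher with siSUPT6H (82.6%), and for 41.4% of all genes called higher with it. In RNU4ATAC the log2 changes were 1.69, 1.64 and 0.53 with A1, A3 and Q3, in RPPH1 1.46, 1.72 and 0.73, and in RNU1-1 1.04, 1.06 and 0.44 (F test, adjusted p 2.92e-08, 8.63e-08 and 0.000427). The box H/ACA scaRNAs were less graded, with medians of 1.42, 1.76 and 1.29, and SCARNA16 did not differ by this test (2.27, 2.43 and 2.39, adjusted p 0.682). For siSF3B1, where SF3B1 was at 42.6%, 39.6% and 40.5% with A2, A3 and Q3, SCARNA13 was highest with A3 (1.43, 2.21 and 1.30, adjusted p 1.99e-07), and so was RPPH1 (0.38, 0.96 and 0.26). Whether the level of SUPT6H left in the cells bears on these changes was not tested.

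The control arrays were compared as well. Between siNeg and Untreated, 2 of 29 were called, both lower with siNeg (7.42% of all genes were called, 4.76% lower and 2.67% higher), namely SCARNA18 and RNU1-3. Between siNeg replicates 4 to 6 and replicates 1 to 3, which belong to different runs, 6 of 29 were called (36.4% of all genes): RPPH1 (0.47) and SCARNA10 (0.31) were higher, and RNU4ATAC (-0.55), RN7SL1 (-0.48), SCARNA9 (-0.37) and RNU6-1 (-0.32) lower.

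Most of the scaRNAs lie within the span of a longer gene, and 12 pairs of a kept scaRNA and such a host (RefSeq, GRCh38.p14) were both measured. In these pairs the scaRNA was called higher in 9 with siSUPT6H, 9 with siSF3B1 and 10 with siHNRNPH1, while the host was called higher in 0, 3 and 2 and lower in 4, 5 and 4. Over all genes 25.7%, 26.2% and 21.6% were called higher and 21.8%, 35.7% and 23.5% lower, and the hosts' counts with siSF3B1 and siHNRNPH1 lie near these shares. The median log2 change was 1.32, 0.57 and 1.40 for the scaRNAs, and -0.12, -0.19 and -0.05 for the hosts. Of the paired scaRNAs, SCARNA3, SCARNA7, SCARNA11, SCARNA14, SCARNA21, SCARNA22 and SCARNA23 were detected on fewer than 3 control arrays. They were kept mainly through arrays of silenced cells, so that their being higher follows in part from that. Their fitted values, not bounds, enter the medians. Among the hosts, NSD2, which holds SCARNA22, was detected on 1, 2 and 3 of 9 arrays with siSUPT6H, siSF3B1 and siHNRNPH1. Its not being called says little, and its fitted values enter the host medians. SCARNA18 rose by 2.40, 2.71 and 2.93 while its host TMEM167A had log2 changes of 0.03, 0.61 and -0.04, of which that with siSF3B1 was called. SCARNA23 rose with every target while POLA1, the catalytic subunit of DNA polymerase alpha, fell with every target (-0.37, -0.46 and -0.29, adjusted p 0.00409, 0.00019 and 0.0268).

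Other pairs ran apart in part of the targets. CHD4, a chromatin remodeller whose span holds SCARNA11, was not called with siSUPT6H (-0.10), fell with siSF3B1 (-0.84) and rose with siHNRNPH1 (0.42). CEP295, the host of SCARNA9, fell with siSF3B1 (-0.55) and was not called with siSUPT6H (-0.13) or siHNRNPH1 (-0.22). NCAPD2, a condensin subunit and host of SCARNA10, fell with siSUPT6H (-0.48) and with siSF3B1 (-0.74), whereas SCARNA10 fell with the first and rose with the other. NCAPD2 was also higher with siNeg than in Untreated cells (limma, log2 change 0.46, adjusted p 0.0112). Its mean was 7.71 with siSUPT6H and 7.45 with siSF3B1, against 7.73 in Untreated cells, so its fall with siSUPT6H is seen only against siNeg. PHB2, which holds SCARNA12, fell with all 3 (-0.28, -0.22 and -0.62). SEC14L1, one of the genes that hold SCARNA16, rose with siSF3B1 and siHNRNPH1 (0.46 and 0.37) and was not called with siSUPT6H. RNU4ATAC lies within CLASP1, which rose with siSUPT6H (0.35), fell with siSF3B1 (-0.83) and was not called with siHNRNPH1 (0.05). The strand of the small RNA was not given, so a host here is a gene whose span holds it on either strand. SCARNA16 also lies within SNHG20 and SCARNA11 within CHD4-AS1, which were not among the genes tested.

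**Figure D4:**
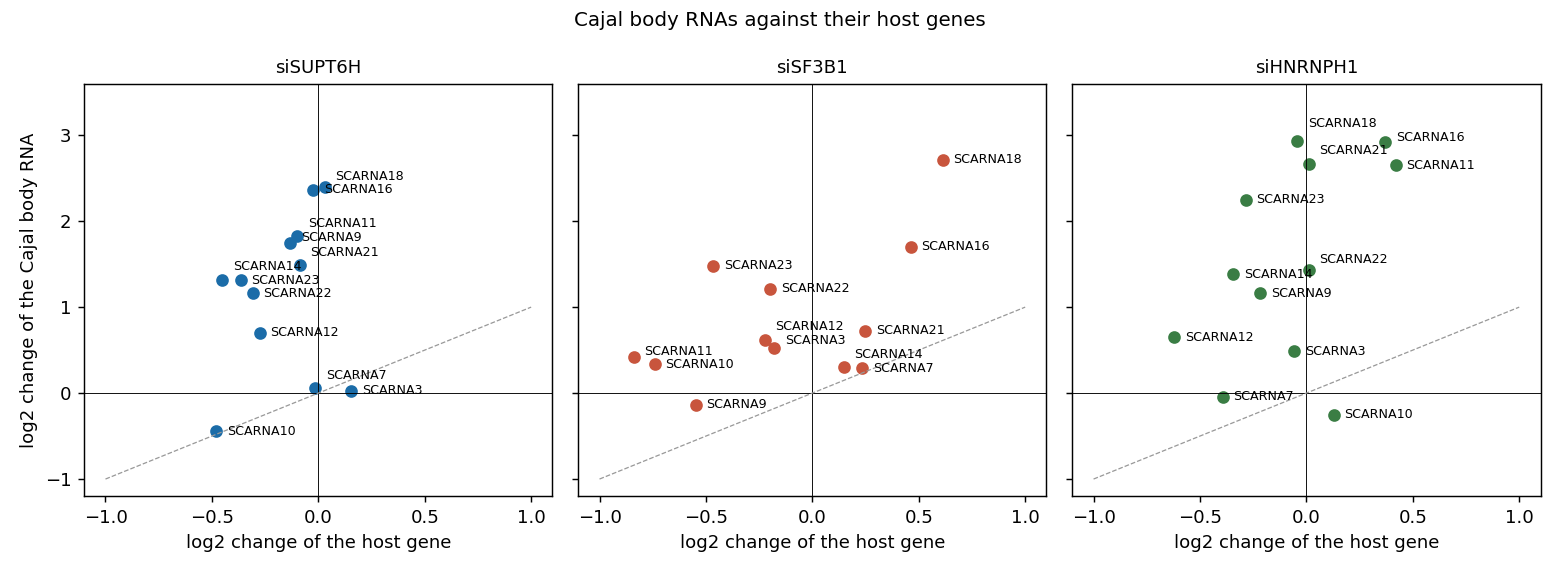
Log2 change of 12 scaRNAs (vertical) against that of the gene whose span holds them (horizontal), each against siNeg of the same run, by target; the dashed line marks equal change. Hosts lie between -0.84 and 0.61 while scaRNAs reach 2.93, and the points have no error bars. Points of RNAs undetected in siNeg are fitted values and not bounds.

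Genes that make, modify or degrade these RNAs were examined as lists. Of 12 core proteins of box H/ACA and box C/D particles, 3 were called higher and 4 lower with siSUPT6H, 6 higher and 4 lower with siSF3B1, and 1 higher and 5 lower with siHNRNPH1. DKC1, the pseudouridine synthase of the H/ACA particle, fell with siSUPT6H (log2 change -0.65) and siHNRNPH1 (-0.74), and NHP2, another H/ACA core protein, fell with siHNRNPH1 (-0.45). SHQ1, an H/ACA assembly factor, rose with all 3 (0.50, 0.91 and 0.31), and NOP56 of the C/D particle fell with siSF3B1 (-1.15). Of 16 Cajal body and SMN complex proteins, 3 rose and 3 fell with siSUPT6H, 7 and 4 with siSF3B1, and 2 and 7 with siHNRNPH1. COIL, the marker protein of Cajal bodies, rose with siHNRNPH1 (0.36), NOLC1 and SMN1 (nearly identical to SMN2) rose with siSF3B1 (1.35 and 1.25), and PRMT5, which methylates Sm proteins, fell with siSUPT6H (-0.92).

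Of 22 genes of snRNA transcription and 3′ end processing, 4 rose and 5 fell with siSUPT6H, 7 and 8 with siSF3B1, and 1 and 2 with siHNRNPH1. INTS11, the endonuclease of Integrator, fell with all 3 (-0.45, -1.22 and -0.99, adjusted p 0.00119, 3.02e-13 and 4.4e-10), and INTS3 fell with siSF3B1 (-1.41). PHAX, the adaptor for nuclear export of snRNAs, rose with all 3 (0.63, 1.79 and 0.25). Over its list of 8 cap, export and import genes, 3 rose and 3 fell with siSUPT6H, 5 and 1 with siSF3B1, and 2 and 2 with siHNRNPH1. Of 17 Sm and LSm proteins, 6 rose and 8 fell with siSUPT6H, 10 and 1 with siSF3B1 (SNRPN, -1.23), and 1 and 3 with siHNRNPH1 (LSM8, -1.08, among the 3).

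Of 21 genes of the exosome and of trimming, 4 rose and 8 fell with siSUPT6H, 4 and 9 with siSF3B1, and 2 and 12 with siHNRNPH1. EXOSC8, a subunit of the RNA exosome, fell with all 3 (-1.23, -0.81 and -1.45, adjusted p 3.57e-09, 1.29e-05 and 4.16e-11), EXOSC10, its nuclear nuclease, fell with siSF3B1 (-0.87), and EXOSC5 fell with siHNRNPH1 (-1.03). USB1, the exonuclease that trims the 3′ end of U6, rose with all 3 (1.14, 0.93 and 0.49). The background for the counts of all these lists, above and below, is the share of all genes called. It was 25.7%, 26.2% and 21.6% higher with siSUPT6H, siSF3B1 and siHNRNPH1, and 21.8%, 35.7% and 23.5% lower. Several counts lie near it. Among them are those of the exosome list with siSF3B1 and of the snRNA transcription list with siSUPT6H and siSF3B1. No list was tested against this background.

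Of 23 genes of the polymerase III machinery, 5 rose and 7 fell with siSUPT6H, 6 and 12 with siSF3B1, and 3 and 10 with siHNRNPH1. POLR3G, a polymerase III subunit, rose with all 3 (1.09, 0.64 and 0.25), while its paralog POLR3GL rose with siSUPT6H (0.74) and fell with siSF3B1 (-1.11). MAF1, a repressor of polymerase III, fell with siSUPT6H (-0.83) and siHNRNPH1 (-0.71), POLR3C fell with the same 2 targets (-1.31 and -0.82), and GTF3C1, a subunit of the factor TFIIIC, fell with siSF3B1 (-1.31). Of 7 proteins of the 7SK particle and P-TEFb, 3 rose and 0 fell with siSUPT6H, 3 and 1 with siSF3B1, and 2 and 1 with siHNRNPH1. CDK9, the kinase of P-TEFb, rose with siSUPT6H (0.87) and fell with siSF3B1 (-0.52), LARP7, which binds the 3′ end of 7SK, rose with siSF3B1 (0.45), and MEPCE, which caps 7SK, rose with siHNRNPH1 (0.69).

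The protein partners of RPPH1, RMRP and RN7SL1 showed no single direction. Of 10 RNase P and MRP proteins, 3 rose and 1 fell with siSUPT6H, 7 and 1 with siSF3B1, and 1 and 2 with siHNRNPH1. POP4 and POP5 rose with siSUPT6H (0.71 and 0.64), RPP30 and POP7 rose with siSF3B1 (1.05 and 1.02), and POP5 fell with siSF3B1 (-0.36). Of 8 signal recognition particle genes, 3 rose and 3 fell with siSUPT6H, 2 and 3 with siSF3B1, and 3 and 2 with siHNRNPH1, and SRPRB, a subunit of the receptor, rose with all 3 (0.62, 1.15 and 0.30).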

How the data were processed

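Labelled cRNA of 36 bead arrays was read as average bead intensity for 47323 probes. The deposited intensities were neither background-subtracted nor normalised, as their values show. A detection p-value for each was deposited by the authors, in steps of 1 in 770. A second deposited table of 47231 probes holds log2 values that the authors normalised with R 3.0.2 and lumi, per the submitters' processing notes. Its columns fall into 2 distributions (medians 6.533 and 6.44), taken as runs, and it served as an alternative. The Untreated columns of the intensity table were the names left once the others had been matched to the labels, and all 36 columns matched their own array best in the second table.

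Intensities were background-corrected from the detection p-values and quantile-normalised on the log2 scale (neqc, limma 3.58.1, R 4.3.3), so levels are relative within this set of arrays. Probes detected at p below 0.01 on at least 3 arrays were kept (19738). Of all probes, 30113 carry 1 gene symbol, 8 several and 17202 none, and the last 2 kinds were left out. The probe with the highest mean stood for a gene (11437 genes). A limma fit over the 36 arrays had 12 groups and 24 residual degrees of freedom, and eBayes used the trend of variance on intensity. Tests were two-sided, with Benjamini-Hochberg adjustment over all genes and a threshold of 0.05, and the fitting was tested on simulated data. The second probe of a gene was tested among all 19738 probes. The set of small RNAs, the gene lists and the tests were chosen with earlier results of these data known. Every small RNA of the rule is named; array values are given for SCARNA16, SCARNA18, RN7SK and the 4 further called ones with the largest change per target, and others with array values were added after their values were seen. Of each list up to 2 rises and 2 falls per target could be named. The alternatives were the control arrays, normalisation, background, filter, probe, trend, run, siRNA and replicate settings of the closing section. The detection floor and 95% confidence intervals come from the same arrays. Figures were drawn with matplotlib 3.10.9. Sequences of these RNAs were not used here.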

Additional observations from a re-analysis of the deposited data

Results flagged for a closer look

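In each of 87 groups of 9 arrays (29 RNAs, 3 targets) the most extreme array was set against its nearest neighbour, and 5 stood apart, where chance gives about 1 in 20. RN7SK was highest at 10.006 on siSF3B1 A3 replicate 2, with the next array at 9.6923, and at 9.744 on siHNRNPH1 A3 replicate 1, with the next at 9.2589. SCARNA27 was highest at 6.5571 on siHNRNPH1 A2 replicate 1, with the next at 5.3214. SCARNA7 was highest at 5.0748 on siSUPT6H A3 replicate 2, with the next at 4.8402, and at 5.1437 on siHNRNPH1 Q3 replicate 1, with the next at 4.6408. SCARNA27 and SCARNA7 were called with no target, with these arrays included.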

How the results depend on the processing

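Across 28 alternatives, 3475 of 3801 single changes kept their side of the threshold and, where called, their direction. Of the others 249 lost the call, 68 gained one and 9 reversed. A change of sign where neither value was called counted as kept. With all 6 siNeg arrays as control, 5 of 29 were called for siNeg against Untreated (2 with run-matched arrays) and 21 between siSUPT6H and siHNRNPH1 (12). In that setting RN7SL1 turned to 0.23 with siSF3B1, to 0.16 between siSF3B1 and siHNRNPH1 and to 0.30 between siSUPT6H and siHNRNPH1, where RNU4ATAC turned to 0.34 and RNU6-1 to 0.20. With Untreated as control, RNU6ATAC with siSUPT6H was -0.014, and by its other probe, an alternative chosen after seeing the data, RN7SK with siSUPT6H was -0.12. Without siSUPT6H Q3, RNU4ATAC and SCARNA18 between siSUPT6H and siSF3B1 were 0.033 and 0.0042, and 0 of 29 differed among siSUPT6H siRNAs (12 with all). Without siSF3B1 A3, 0 differed among siSF3B1 siRNAs (7), and without siHNRNPH1 A3, 10 among siHNRNPH1 siRNAs (18). Without siHNRNPH1 A2 and without Q3, 5 were called between siSUPT6H and siHNRNPH1. With each run normalised alone that count was 7. With no background correction, and with the authors' values, 11 differed among siSF3B1 siRNAs. Requiring detection on 3 control arrays, also chosen after seeing the data, leaves 16 RNAs by construction, and counts of 15, 14 and 14 with siSUPT6H, siSF3B1 and siHNRNPH1, 13, 11 and 11 with each of the 3 siRNAs of a target, and 3 and 11 among siSF3B1 and siHNRNPH1 siRNAs. Between targets it leaves 11 (siSUPT6H, siSF3B1), 8 (siSF3B1, siHNRNPH1) and 6 (siSUPT6H, siHNRNPH1). With the siRNA as a random block, siSF3B1 had 15 calls (24 in the fixed fit), siNeg against Untreated 0, siSF3B1 against siHNRNPH1 4 and siSUPT6H against siHNRNPH1 0. With siRNA means as replicates there were 5, 13 and 12 calls with siSUPT6H, siSF3B1 and siHNRNPH1, 0 for siNeg against Untreated, and 11, 1 and 0 between targets. Differences across runs could not be computed with each run fitted alone. The random block and the siRNA means leave fewer independent units; the cause of the other shifts was not tested. Leaving out 1 replicate number gave 0 to 2 for siNeg against Untreated, 6 to 10 between siSUPT6H and siHNRNPH1, 13 to 20 with each siSUPT6H siRNA and 4 to 6 among siSF3B1 siRNAs. Replicate numbers did not pair the arrays (mean correlation of same-numbered residuals 0.019 in run 1 and -0.002 in run 2). The fit with the replicate number as a block called 24, 25 and 24 of 29 with siSUPT6H, siSF3B1 and siHNRNPH1 and changed no count of calls by over 1.5 times. RNAs near the detection floor have bounds rather than folds, which limits what these arrays can show for them.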
